A study of Mus musculus with 4 samples.

Results

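The 10 genes described here encode ion channels of the sperm flagellum: the pore subunits Catsper1, Catsper2, Catsper3 and Catsper4 and the auxiliary subunits Catsperb, Catsperg1 and Catsperg2 of the CatSper calcium channel, the potassium channel gene Kcnu1 with its partner Lrrc52, and the proton channel gene Hvcn1. They were chosen by gene symbol, and each was present once among the 22311 genes of every table. RNA of whole testes was sequenced from 24-day-old male mice, 2 Rfx2-/- mutants and 2 controls, to ask which genes depend on RFX2, a transcription factor of the RFX family. The labels call the controls wild-type and the strain DBA, whereas the study's methods describe heterozygous controls on a mixed 129/s6 and C57BL/6 background, so the control genotype cannot be settled here. The mutant allele came from 1 embryonic stem cell clone, replaces the exons for the DNA-binding domain with a neomycin cassette, and is carried by every cell of the animal. No spermatids are isolated in such a sample: it mixes germ cells of all stages present at that age with Sertoli, Leydig and other somatic cells. Expression is given as FPKM (fragments per kilobase of transcript, scaled to the mapped fragments of the library), a unit per transcript length in which genes can be compared with each other.

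Rfx2 itself stood at 36.7 and 39.8 FPKM in the mutants and at 123 and 89.4 FPKM in the controls, a log2 difference of -1.43 ± 0.19 (SE) with an adjusted p of 0.00617 in limma. Without control 1 its adjusted p was 0.0628. The study found the transcript left in mutants to be out of frame, and saw no RFX2 protein in their testes by Western blot. Mutant 1 stood apart in the markers of late germ cells. All 10 elongating spermatid markers, the protamines and transition proteins among them, were lowest in mutant 1, where they summed to 1462 FPKM against 6929 FPKM in mutant 2 and 8210 and 5629 FPKM in controls 1 and 2. Of the 10 round spermatid markers, 9 were lowest in mutant 1, with sums of 545, 1034, 936 and 795 FPKM in the same order. The study describes mutant testes without elongating spermatids, so the name of a marker list does not show that such cells were present. The 10 pachytene spermatocyte markers summed to 3244 to 3584 FPKM in the 4 samples, of which Ldhc alone gave 2155 to 2602 FPKM. Of these markers, 5 were highest in mutant 1. Pgk2 lay below both controls in both mutants, at 123 and 169 FPKM against 225 and 195 FPKM. The libraries were similar in depth: relative to control 1, the fragments behind 1 FPKM of a gene were 1.06 times as many in control 2, 1.05 times in mutant 1 and 0.894 times in mutant 2.

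CatSper is a calcium channel of the sperm tail that opens when the cell interior becomes alkaline, and the calcium it admits drives the vigorous asymmetric beating called hyperactivation. CATSPER1 to CATSPER4 together line the pore, and auxiliary subunits such as CATSPERB and CATSPERG are needed to assemble the complex. Kcnu1 encodes SLO3, the pore of the alkalinisation-activated potassium current that hyperpolarises sperm, and LRRC52 is its accessory subunit. HVCN1 is a voltage-gated proton channel that lets acid leave the cell, prominent in human sperm and also in B lymphocytes and phagocytes. The CatSper genes, Kcnu1 and Lrrc52 are switched on in meiotic and postmeiotic germ cells, before the tail that carries the proteins is complete.

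RFX factors bind the X-box, an inverted repeat whose arms resemble GTTGCC or GTTACC. Promoter sequences of 250 bases before to 50 bases after the transcription start, from RefSeq (GRCm38.p6), were at hand for Catsper2, Catsper3, Catsper4, Catsperb, Lrrc52 and, with 2 starts, Catsperg1. Catsper1, Catsperg2, Kcnu1 and Hvcn1 were not matched. None of these 7 promoters held a full X-box on either strand, a motif present in 1.53% of the 32851 promoters, and none held GTTGCC, which was in 12.5%. The arm GTTACC was in 2 of the 7 and in 7.21% of all promoters. The 120 bases before the start of both genes that held it are printed from 5′ to 3′ along the gene, with that arm in capitals. For Catsper2 they lie at chr2:121413793-121413912 on the minus strand, where the arm reads on the opposite strand and begins 46 bases before the start. For Catsperg1 they lie at chr7:29214034-29214153 on the minus strand, where it begins 18 bases before the start.
Catsper2: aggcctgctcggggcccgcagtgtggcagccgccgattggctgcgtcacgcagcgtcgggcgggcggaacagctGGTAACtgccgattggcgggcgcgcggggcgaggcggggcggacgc
Catsperg1: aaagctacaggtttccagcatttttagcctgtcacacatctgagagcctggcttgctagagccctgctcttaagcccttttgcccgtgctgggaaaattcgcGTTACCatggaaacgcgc
In Catsperg1 the capitals open a stretch that differs from an X-box at 1 position, a match that 11.3% of all promoters held and no other promoter of these genes did. The cyclic AMP response element TGACGTCA, bound by CREM, was in none of the 7 and in 1.79% of all promoters. Its core TGACG was in 1 of the 7, that of Catsper2 at 77 bases before the start on the opposite strand, and in 20.8% of all. A match describes letters in this window and does not show binding. The study searched a wider window with a weight matrix, which also scores inexact sites. The lack of a match here therefore does not show that a gene lacks a site.

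All 10 genes were detected in all 4 samples, and 9 of them exceeded 1 FPKM in each. In the test of mutant against control, which covered 12985 genes, none of the 10 passed an adjusted p of 0.05 in limma in either direction. Over all genes tested, 2.52% passed as lower and 0.308% as higher in the mutants. At an unadjusted p of 0.05 the count was 1 lower, Kcnu1, and 0 higher, against 6.68% and 2.01% of all genes. Robust and untrended versions of the test also called 0 of the 10. With 2 samples a group, a p that misses the threshold does not show that a level did not differ. The differences depended on the mutant samples. Those of Catsper1, Catsper3 and Lrrc52 turned from negative to positive without mutant 1. That of Catsper4 turned from positive to negative without mutant 2. Fewer cells of a type and less RNA per cell cannot be told apart in whole testes.

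In 4 genes, Catsper2, Catsperb, Catsperg2 and Kcnu1, both mutants lay below both controls, which was so for 15.2% of all genes tested. In 2 genes, Catsperg1 and Hvcn1, both mutants lay above both controls, against 16.3% of all genes. Hvcn1 reached 1 FPKM in the mutants alone, which let it into the test, so its place in this count was fixed. The remaining genes overlapped between the groups. The log2 differences of the 10 genes ran from -1.01 to 0.44 with a median of -0.26, where the median of all genes tested was 0.032. Cufflinks, the software to which Cuffdiff belongs, gave each FPKM a confidence interval, which covers counting error. The intervals of both mutants were clear of those of both controls for Catsperg1, Catsperg2 and Kcnu1. The share of all genes with such clear intervals was not computed, so this is no result about the 10 genes. Catsperg1 and Catsperg2 share much sequence, and their separate values are uncertain.

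**Figure D1:**
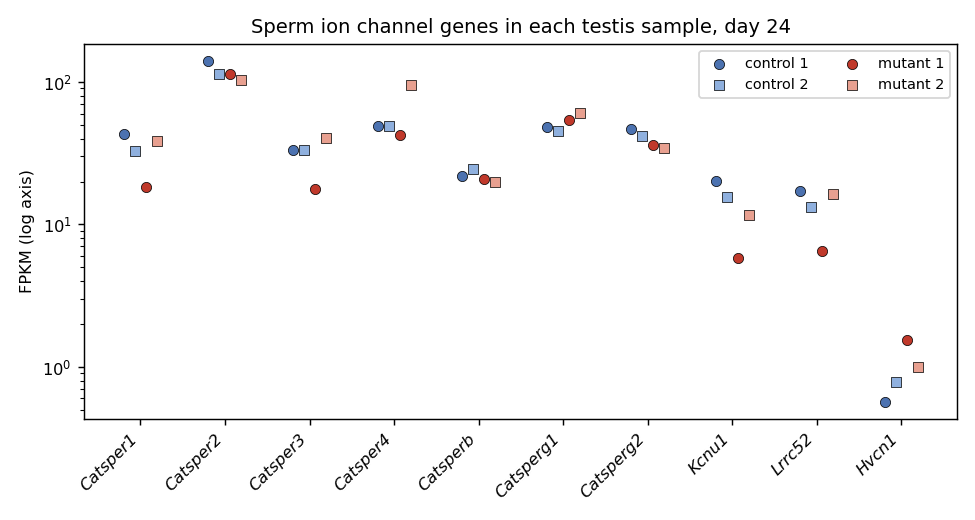
FPKM (log axis) of the 10 channel genes in each of the 4 testis samples, 1 point per sample. Catsper2 was the highest and Hvcn1 the lowest gene in every sample, and mutant 1 was the lowest sample for Catsper1, Catsper3, Catsper4, Kcnu1 and Lrrc52.

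The levels of the genes spanned a wide range. Catsper2 was the most abundant, with 127 ± 18.4 FPKM in controls (SD, n = 2) and 108 ± 6.49 FPKM in mutants, and by level it exceeded 94.5% to 96.2% of the genes tested in each sample. In the controls it was followed by Catsper4 at 49.2 ± 0.193, Catsperg1 at 46.8 ± 2.10, Catsperg2 at 44.3 ± 3.93, Catsper1 at 37.9 ± 7.64 and Catsper3 at 33.1 ± 0.00134 FPKM. From Catsperg1 to Catsper3, each neighbour in this order overlapped the next between the 2 control samples. Within each control sample Catsperg1 exceeded Catsperg2 and Catsperg2 exceeded Catsper1, while Catsper3 exceeded Catsper1 in control 2 only. Catsperb followed at 23.1 ± 1.73 FPKM, then Kcnu1 at 17.8 ± 3.24 and Lrrc52 at 15.2 ± 2.78 FPKM. The ranges of Kcnu1 and Lrrc52 overlapped, but Kcnu1 was the higher within each control sample. Hvcn1 was last, with 0.674 ± 0.149 FPKM, a level above that of 0.470% and 0.809% of the genes tested in controls 1 and 2. In the mutants Lrrc52 ranked above Kcnu1 and Catsper3 above Catsper1 by mean, and both pairs overlapped between the mutant samples. Within samples, Lrrc52 exceeded Kcnu1 in both mutants, whereas Catsper3 exceeded Catsper1 in mutant 2 only.

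Among the pore subunits, Catsper1 and Catsper3 lay below both controls in mutant 1 but not in mutant 2. Catsper1, at chr19:5335741-5344153 of NCBIM37 on the plus strand with 12 exons, had 18.3 FPKM in mutant 1 and 38.8 FPKM in mutant 2, against 43.3 and 32.5 FPKM in controls 1 and 2. Mutant 2 thus lay between the controls, and mutant 1 below them at 48.2% of their mean. The log2 difference of the groups was -0.48 ± 0.32 (SE; 95% interval -1.23 to 0.28; limma, adjusted p = 0.9999). Without mutant 1 it was 0.047, and without mutant 2 it was -0.999.

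Catsper3 (chr13:55885929-55910359, plus strand, 8 exons) had 17.8 and 40.6 FPKM in mutants 1 and 2 and 33.1 FPKM in both controls. The mutants thus fell on either side of controls that hardly differed. Its log2 difference was -0.29 ± 0.33 (95% interval -1.05 to 0.48; limma, adjusted p = 0.9999), turning to 0.29 without mutant 1. Without mutant 2 it was -0.86.

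Catsper4 (chr4:133767885-133783298, minus strand, 11 exons) had 42.4 FPKM in mutant 1 and 94.8 FPKM in mutant 2, and 49.1 and 49.4 FPKM in the controls. Its level in mutant 2 was 193% of the control mean, the highest of the 4 pore genes by that measure, and its level in mutant 1 was 86.0%. The log2 difference was 0.36 ± 0.33 (95% interval -0.40 to 1.12; limma, adjusted p = 0.9999). It was 0.93 without mutant 1 and -0.21 without mutant 2.

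Catsper2 (chr2:121218367-121240317, minus strand, 9 exons) varied least between the mutants among the pore genes. Its FPKM were 113 and 104 in the mutants and 140 and 114 in the controls, so that mutant 1 lay just below control 2. The log2 difference was -0.22 ± 0.18 (95% interval -0.63 to 0.19; limma, adjusted p = 0.9999). The gene shares 18 exonic bases, 0.469% of its exonic length, with Pdia3 on the other strand.

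The makeup of the pore transcripts therefore differed between the mutant samples. Catsper2 held 59.0% of the summed pore FPKM in mutant 1 and 37.3% in mutant 2, on either side of 52.8% and 49.8% in the controls. Catsper4 held 34.1% in mutant 2 and 22.1% in mutant 1, against 18.5% and 21.5% in the controls. The share of Catsper1 was 9.55% in mutant 1, 14.0% in mutant 2, and 16.3% and 14.2% in the controls. Summed over the 4 pore genes, the FPKM were 191 and 278 in the mutants and 266 and 229 in the controls, so the mutants enclosed the controls.

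**Figure D2:**
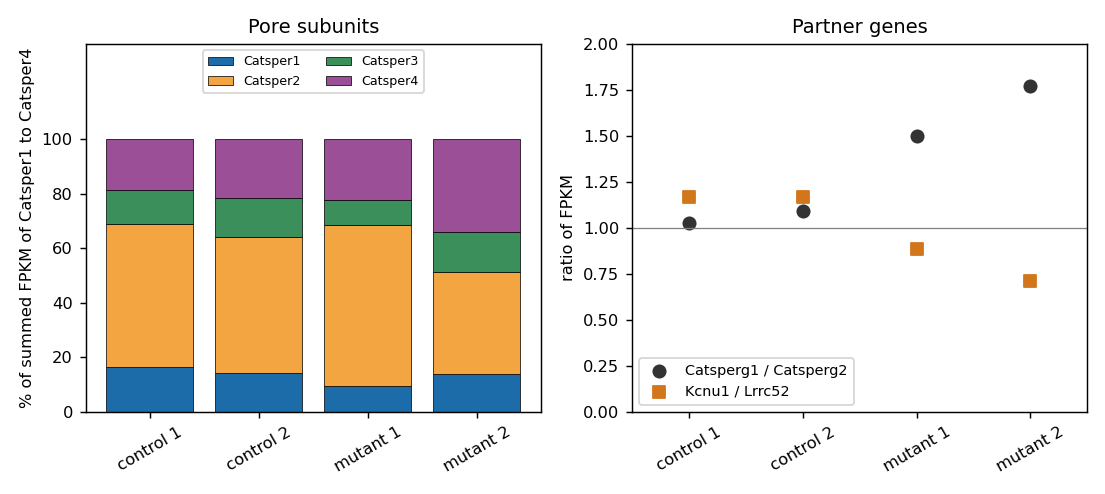
Left, share of each pore gene in the summed FPKM of Catsper1 to Catsper4 (%, stacked bars from 0, 1 bar per sample). Right, ratio of FPKM of Catsperg1 to Catsperg2 and of Kcnu1 to Lrrc52 in each sample, with a line at 1; the first ratio was 1.03 and 1.09 in controls and 1.498 and 1.77 in mutants, the second 1.17 in both controls and 0.886 and 0.713 in mutants.

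The auxiliary subunit genes varied little between samples of a group. Catsperb (chr12:102642883-102864219, plus strand, 27 exons) had 21.0 and 19.8 FPKM in the mutants and 21.9 and 24.3 FPKM in the controls. Both mutants lay below both controls by a narrow margin, with a log2 difference of -0.17 ± 0.17 (95% interval -0.56 to 0.22; limma, adjusted p = 0.9999).

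Catsperg1 and Catsperg2, near-identical mouse genes for the gamma subunit, lay on opposite sides of the controls in the mutants. Catsperg1 (chr7:29966340-29999054, minus strand, 26 exons) had 54.2 and 60.9 FPKM in the mutants and 48.3 and 45.3 FPKM in the controls. Catsperg2 (chr7:30482238-30512051, minus strand, 29 exons) had 36.2 and 34.4 FPKM in the mutants and 47.1 and 41.6 FPKM in the controls. The groups did not overlap for either gene, with Catsperg1 on the high side in the mutants and Catsperg2 on the low side. The log2 difference was 0.29 ± 0.16 for Catsperg1 (95% interval -0.08 to 0.66; limma, adjusted p = 0.859). For Catsperg2 it was -0.32 ± 0.16 (95% interval -0.69 to 0.05; limma, adjusted p = 0.762).

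The ratio of Catsperg1 to Catsperg2 was 1.498 and 1.77 in the mutants and 1.03 and 1.09 in the controls, a log2 difference of 0.62. An exact two-sided permutation test of this ratio gave p = 0.333, the smallest that 2 samples against 2 allow. Their summed FPKM were 90.4 and 95.3 in the mutants and 95.4 and 86.9 in the controls, which overlapped. The genes lie 483183 bases apart, and their coding sequences of 3456 and 3438 bases were identical at 96.4% of aligned bases in the NCBIM37 annotation. Of the 50-base windows of the Catsperg1 transcript, 41.0% were also found in a Catsperg2 transcript, as were 21.3% of its 100-base windows. Fragments from such stretches can be assigned to either gene, so the separate values of this pair are uncertain.

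The potassium channel gene Kcnu1 showed the largest difference of the 10. Kcnu1 (chr8:26960095-27048405, plus strand, 27 exons) had 5.78 FPKM in mutant 1 and 11.7 FPKM in mutant 2, against 20.1 and 15.5 FPKM in controls 1 and 2. Both mutants lay below both controls, at 32.4% and 65.8% of the control mean, and they differed from each other 2.03-fold. The log2 difference was -1.01 ± 0.31 (95% interval -1.72 to -0.30), with an adjusted p of 0.222 in limma. It kept its sign with either mutant left out: it was -0.55 without mutant 1 and -1.46 without mutant 2.

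Lrrc52 (chr1:169375806-169396911, minus strand, 2 exons) had 6.52 FPKM in mutant 1 and 16.4 FPKM in mutant 2, against 17.2 and 13.3 FPKM in the controls. Mutant 2 lay between the controls and mutant 1 at 42.8% of their mean. The log2 difference was -0.49 ± 0.37 (95% interval -1.34 to 0.36; limma, adjusted p = 0.9999). It was 0.11 without mutant 1 and -1.10 without mutant 2.

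Relative to its partner, Kcnu1 was lower in both mutants. The ratio of Kcnu1 to Lrrc52 was 0.886 in mutant 1 and 0.713 in mutant 2 and 1.17 in both controls. The log2 difference of this ratio was -0.56, and the exact two-sided permutation test gave p = 0.333, again the smallest possible. The values of Lrrc52 rest on few fragments: the Cufflinks interval of mutant 1 corresponds to a count of 184, and those of the other samples to 378 to 463.

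**Figure D3:**
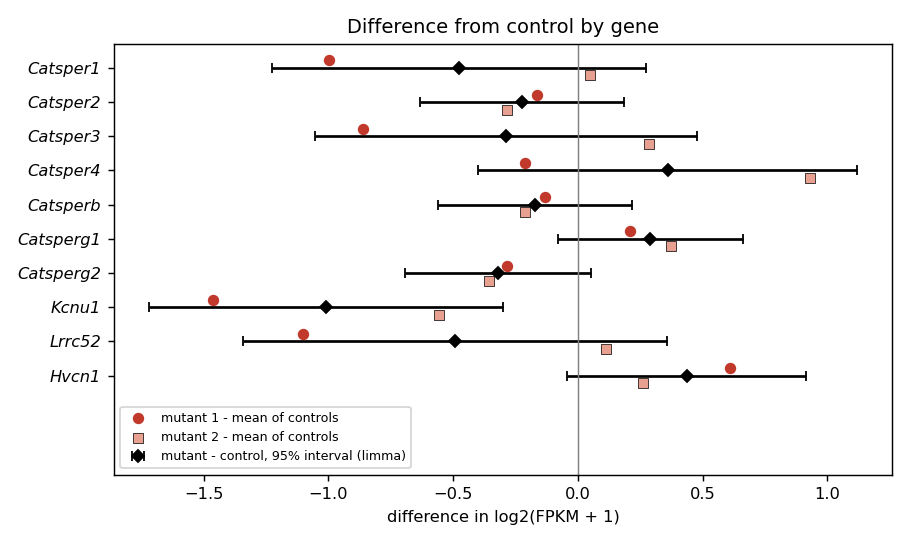
Difference in log2(FPKM + 1) from the controls for each channel gene: diamonds with bars are the mutant minus control difference with its 95% interval from limma, red circles are mutant 1 and light squares mutant 2, each against the control mean. The interval of Kcnu1 alone leaves out 0, and the mutants lie far apart for Catsper1, Catsper3, Catsper4, Kcnu1 and Lrrc52.

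The proton channel gene Hvcn1 was measured on few fragments. Hvcn1 (chr5:122656813-122692306, plus strand, 7 exons) had 1.55 and 1.004 FPKM in the mutants and 0.569 and 0.779 FPKM in the controls, so both mutants lay above both controls. The counts behind its Cufflinks intervals were 113 and 62.1 in the mutants and 27.8 and 57.1 in the controls. The log2 difference was 0.44 ± 0.21 (95% interval -0.04 to 0.92; limma, adjusted p = 0.686), and without a pseudocount the log2 ratio of the group means was 0.92. The gene passed the filter on low values through the mutants alone, so its direction says little.

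Other transcripts were read beside the Hvcn1 value. Its exons share 549 bases, 15.4% of its exonic length, with Tctn1 on the other strand, a gene of the ciliary transition zone. Tctn1 had 23.8 and 25.2 FPKM in the mutants and 15.5 and 13.7 FPKM in the controls, a log2 difference of 0.71 ± 0.17 (limma, adjusted p = 0.0956). Whether the libraries kept strand is not given in the sources used here, and without strand the reads of the shared bases cannot be told apart. Of 6 B cell markers 1, Pax5, passed the filter, and the 6 summed to 2.72 and 3.93 FPKM in the mutants and 3.31 and 2.32 FPKM in the controls. Pax5 was the largest part of each sum, at 0.890 and 3.01 FPKM in the mutants and 2.64 and 1.80 FPKM in the controls. Of the 6, 4 were highest in mutant 1 and 2, Pax5 among them, in mutant 2. Cd79a, a part of the B cell receptor, was at 0.472 FPKM in mutant 1 and at 0.0309 to 0.0875 FPKM in the other samples, and Cd22 was at 0 in mutant 2. The 9 macrophage markers, all of which passed, summed to 62.1 and 40.7 FPKM in the mutants and 50.1 and 62.9 FPKM in the controls. None of the 4 neutrophil markers passed, and they summed to 0.403 to 0.879 FPKM. The part of these cells and of Tctn1 in the Hvcn1 value was not tested.

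The distance between the mutant samples varied from gene to gene. In 5 genes, Catsper1, Catsper3, Catsper4, Kcnu1 and Lrrc52, the level in mutant 2 was 2.03 to 2.52 times that in mutant 1. In the other 5 genes this ratio was 0.647 to 1.12, and the ratio of control 1 to control 2 was 0.731 to 1.33 over the 10 genes. The share of all genes tested with a ratio of mutant 2 to mutant 1 above 2 was not computed. The split is therefore no result about the 10 genes. Mutant 1 lay below both controls for 8 of the 10 genes and above both for 2, against 25.7% and 44.0% of all genes tested. Mutant 2 lay below both for 4 and above both for 4, against 32.5% and 26.2% of all genes. Hvcn1 was among the genes above both controls in each mutant, a place that the filter on low values fixed. The median log2 difference of the 10 genes from the control mean was -0.25 in mutant 1 and 0.080 in mutant 2, beside 0.096 and -0.029 over all genes tested.

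The spermatid markers also lay lower in mutant 1 than in mutant 2 by median. The 5 genes were picked by their distance between the mutants, so their direction was fixed by that choice. The other 5 channel genes, with ratios of mutant 2 to mutant 1 of 0.647 to 1.12, showed no such distance. The median log2 difference from the control mean was -1.55 in mutant 1 and 0.22 in mutant 2 for the 10 elongating spermatid markers. It was -0.74 and 0.21 for the 10 round spermatid markers. Prm1, the protamine that packs sperm DNA, had 136 and 1195 FPKM in mutants 1 and 2 and 1792 and 1266 FPKM in the controls. The part of the spermatid content of the samples in the values of the channel genes was not tested. In mutant 2, 5 of the 10 elongating and 6 of the 10 round spermatid markers were at their highest of the 4 samples, and Prm1 and Tnp1 lay below both controls.

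**Figure D4:**
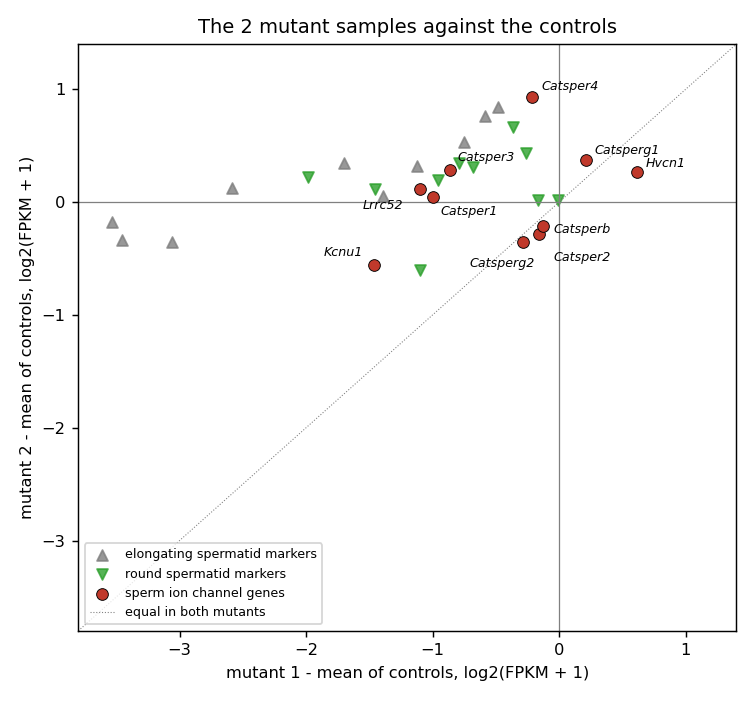
Difference from the control mean in log2(FPKM + 1), mutant 1 on the horizontal and mutant 2 on the vertical axis, 1 point per gene, for the 10 channel genes (circles), the elongating spermatid markers (triangles up) and the round spermatid markers (triangles down); the dotted line marks equal differences. Most markers lie left of 0 with mutant 1 low, and Catsper1, Catsper3, Catsper4, Kcnu1 and Lrrc52 lie well above the line.

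Lists of related genes were read alongside: 44 of 48 listed genes were in the tables and 33 passed the filter. Of these, 1 (Tpte) was lower and 1 (Car4) higher at an adjusted p of 0.05 in limma, against 2.52% and 0.308% of all genes tested. Tpte passed the filter through the controls alone and Car4 through the mutants alone, so these counts say little about the lists. The median log2 difference of the 33 genes was -0.0032. Both mutants lay below both controls for 9 of the 33 and above both for 5, against 15.2% and 16.3% of all genes. Tpte and Car4 are in these counts too, in places that the filter fixed.

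The later-described CatSper subunits and partners were close to the controls. All 7 of them in the tables passed the filter and 0 passed the limma test, at an adjusted or an unadjusted p of 0.05, with log2 differences from -0.26 to 0.23. Catsperz, a small subunit that keeps the channel in ordered rows along the tail, had 435 and 461 FPKM in the mutants and 444 and 326 FPKM in the controls. Its partner Efcab9, a calcium-binding subunit, had 67.3 and 108 FPKM in the mutants and 104 and 82.4 FPKM in the controls, with mutant 1 again the lowest. Catsperd, the delta subunit, stood at 46.4 and 44.8 FPKM in the mutants and 42.6 and 35.4 FPKM in the controls, so both mutants lay slightly above both controls.

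In the list of proton, bicarbonate and cyclic AMP signalling, 6 of 8 genes passed the filter and 1, Car4, was called. Car4, a membrane-bound carbonic anhydrase that interconverts carbon dioxide and bicarbonate, rose from 0.538 and 0.448 FPKM in the controls to 1.99 and 2.87 FPKM in the mutants. Its log2 difference was 1.19 ± 0.21 (limma, adjusted p = 0.0245), and it passed the filter through the mutants alone. The adjusted p was 0.144 without control 1 and 0.159 without control 2. Slc9c1, the sodium-proton exchanger of the mouse sperm tail, had 28.7 and 29.5 FPKM in the mutants and 34.3 and 38.6 FPKM in the controls (log2 difference -0.31 ± 0.16; limma, adjusted p = 0.793). Adcy10, the bicarbonate-activated adenylyl cyclase of sperm, had 30.5 and 43.5 FPKM in the mutants and 47.5 and 44.0 FPKM in the controls (log2 difference -0.32 ± 0.20; limma, adjusted p = 0.980).

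In calcium and sodium handling, 7 of 9 genes passed the filter and 0 passed the adjusted threshold in limma, 1 at an unadjusted p of 0.05. That gene was Atp1a4, the sodium pump subunit of sperm, with 16.3 FPKM in mutant 1 and 47.7 FPKM in mutant 2 against 74.6 and 64.2 FPKM in the controls. Like Kcnu1, it lay below both controls in both mutants and lowest in mutant 1, with a log2 difference of -1.27 ± 0.41 (limma, adjusted p = 0.268). Among other calcium-permeable channels, 12 of 13 passed the filter and 0 passed the limma test at an adjusted or an unadjusted p of 0.05, with log2 differences from -0.47 to 0.23. The lowest was Pkd2l2, a polycystin-type channel gene, with 6.97 and 5.99 FPKM in the mutants and 9.01 and 9.66 FPKM in the controls (limma, adjusted p = 0.578).

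Of 7 nearest relatives of the channel genes, 1 passed the filter. This was Tpte, which encodes a testis phosphatase whose voltage-sensing part resembles that of HVCN1. Tpte fell from 2.62 and 2.30 FPKM in the controls to 0.141 and 0.182 FPKM in the mutants, a log2 difference of -1.57 ± 0.19 (limma, adjusted p = 0.00305). It passed the filter through the controls alone, and without a pseudocount the log2 ratio of the group means was -3.93. Its mutant values were close to each other, unlike those of Kcnu1. The relatives of Kcnu1, Kcnma1, Kcnt1 and Kcnt2, were below 1 FPKM in every sample.

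**Figure D5:**
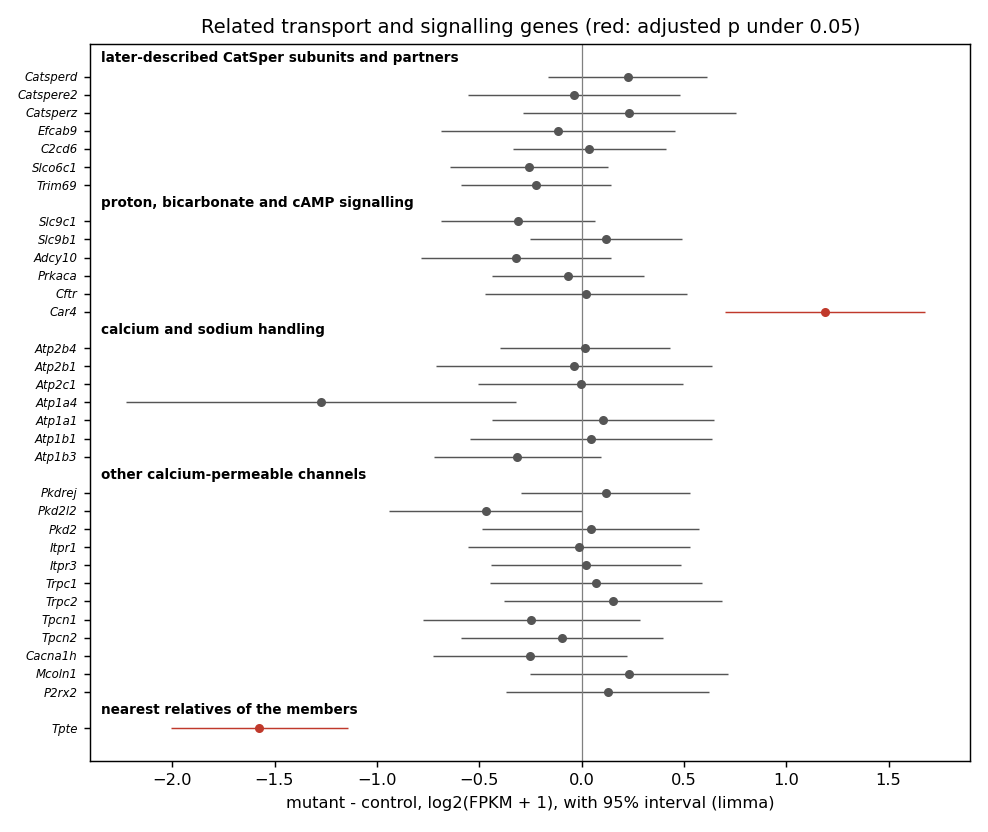
Mutant minus control difference in log2(FPKM + 1) with its 95% interval from limma for the 33 related genes that passed the filter, grouped by list; red marks an adjusted p under 0.05. Tpte, at -1.57, and Car4, at 1.19, are marked, and the CatSper partners lie between -0.26 and 0.23.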

How the data were processed

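RNA of 24-day-old testes, 2 mutant and 2 control samples described by the study as independent biological samples, was sequenced on an Illumina instrument. Per the labels' processing notes, the authors used TopHat2 2.0.6, Cuffdiff and genome build mm9. The deposited tables give, per gene symbol, FPKM made by the authors with a 95% interval. No read counts were used; the count behind a value was computed as the one whose 2 Poisson SD equal the distance from the value to its bound.

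Entries sharing a symbol were summed. Genes at 1 FPKM or more in at least 2 samples were tested on log2(FPKM + 1), which understates changes of low genes, with limma 3.58.1 (R 4.3.3; moderated test with a mean-variance trend, two-sided, no block) and Benjamini-Hochberg adjustment over 12985 genes. Single ratios were compared by an exact permutation test. Positions came from GENCODE annotation of NCBIM37, the assembly also called mm9, matched by symbol.

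The genes and lists were chosen with earlier results of these data known; every channel gene is named, and of the related genes those that passed the test or were needed to describe a list. In the tables, Catsperd is Tmem146, Catsperz is 1700019N12Rik and Slc9c1 is Slc9a10. Alternatives covered the pseudocount, filter, scaling, variance model, replicate block and each sample left out.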

Additional observations from a re-analysis of the deposited data

How the results depend on the processing

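The 10 channel genes gave 168 fold changes over 17 alternative settings with a test. Of these, 158 kept their direction and their side of the threshold, 6 passed it where they had not, and 4 reversed. The reversals came from leaving out a mutant: Catsper1 was 0.047, Catsper3 0.29 and Lrrc52 0.11 without mutant 1, and Catsper4 was -0.21 without mutant 2. With the other mutant left out in place of that one, Catsper1 was -0.999, Catsper3 -0.86, Lrrc52 -1.10 and Catsper4 0.93, and each passed the threshold. Leaving out 1 sample gave 0 to 4 channel genes lower and 0 to 1 higher. It leaves 1 sample in a group, which is then assumed to vary like the other group. Over all genes it gave 167 to 948 lower (327 with all samples; 948 without mutant 2, 167 without control 1) and 13 to 162 higher (40; 162 without mutant 1, 13 without control 2), and among related genes 1 to 2 lower and 0 to 1 higher. The other counts that moved by over 1.5 times were, for all genes lower, 199 with no filter, 202 with a filter at 5 FPKM and 206 with median-ratio scaling. For all genes higher they were 17, 17 and 16, and 67 with robust eBayes. Related genes lower numbered 2 with no filter and with a filter at 0.1 FPKM, where Lrrc55 joined Tpte, and 0 at 5 FPKM, where fewer genes were tested; related genes higher were 0 with no filter, at 5 FPKM and with median-ratio scaling. The adjusted p of Rfx2 was 0.0607 with no filter and 0.0829 with median-ratio scaling, and that of Car4 was 0.0986 and 0.0862; beyond the filter's effect on which genes are tested, the cause was not tested. The replicate numbers share no stated animal or batch, and the deviations of same-numbered samples correlated at -0.154 over 12985 genes. With the numbers as a block, 1 channel gene (Kcnu1, adjusted p 0.0184), 525 genes and 2 related genes were lower and 70 genes higher; with the pairing crossed, 0 channel genes, 266 genes and 1 related gene were lower and 28 genes higher. No scaling moved the median of all genes by over 0.1. Depth limits Hvcn1 most, at counts of 27.8 to 113 a sample.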

Other observations

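Genes under the filter on low values stood outside the main test. Lrrc55, a relative of Lrrc52 that serves as an accessory subunit of calcium-activated potassium channels, had 0.0123 and 0.0144 FPKM in the mutants and 0.631 and 0.449 FPKM in the controls, and it is named here after its values were seen. When the filter was set at 0.1 FPKM its log2 difference was -0.60 ± 0.10 (SE; limma, adjusted p = 0.0253), and with no filter the adjusted p was 0.0466 in limma. It passed the filter at 0.1 FPKM through the controls alone. Lrrc26 had 0.165 and 0.309 FPKM in the mutants and 0.588 and 0.229 FPKM in the controls, which overlapped. Lrrc38 was listed at 0 in 3 samples and at 0.0463 FPKM in control 2. Slc26a3, Slc8a3 and Kcnt2 were under 0.1 FPKM in every sample, and Slc9b2 in 3 of the 4.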
